A study of Mus musculus with 4 samples.

Results

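MHC class I peptide loading was examined in 2 kinds of dividing mouse red cell precursors through 10 genes, B2m, H2-K1, H2-D1, H2-T23, H2-M3, Tap1, Tap2, Tapbp, Erap1 and Calr. The genes were taken by symbol from the array's gene table, and a gene with several probe sets was represented by the brightest. Of the 10, 7 had a probe set of their own among the 19938 genes measured that way, and 3 (H2-K1, H2-D1 and H2-T23) were covered only by probe sets shared with other genes. MEL cells are a mouse erythroleukemia line (clone DS19) that stably expresses Gata-1 joined to ER, the hormone-binding part of the estrogen receptor. They were proliferating in DMEM with serum and puromycin. ES-EP cells are nonleukemic erythroid progenitors grown out of embryonic stem cells, and no transgene is stated for them. They were proliferating in StemPro34 medium with Epogen, IGF-1, dexamethasone, SCF and mercaptoethanol. Each cell type gave 2 arrays, A and B, from duplicate cultures, so replicates show the spread between cultures of 1 line, not between lines. For the p-values, limma pooled this spread over both cell types. It also drew the spread toward that of all genes (degrees of freedom: 2 residual, 8.2 prior). Cell type and medium changed together, and their parts in a difference cannot be told apart.

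Class I molecules carry peptides from proteins made inside the cell to its surface, where T cells and natural killer cells read them. The proteasome cuts proteins into peptides, the TAP1-TAP2 transporter pumps these into the endoplasmic reticulum, ERAP1 trims them, and tapasin and calreticulin hold the empty heavy chain with beta-2-microglobulin until a peptide fits. Many of these genes are raised by interferon.

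Signals are log2 values made by RMA, and a difference is the MEL mean minus the ES-EP mean on that scale. It was called where limma's adjusted p over all genes was under 0.05. Because probes differ in brightness, levels are set side by side only within a gene. The level that 95% of 1027 olfactory receptor genes stayed under (5.19 for MEL, 5.56 for ES-EP) was taken as the top of weak signals, and a fold whose lower side lay under it sets signal against background. In RNA from whole cultures, fewer expressing cells and less RNA per cell cannot be told apart.

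Both chains of the peptide transporter and the nonclassical heavy chain H2-M3 were higher in MEL, whereas the light chain B2m and the peptide trimmer Erap1 were lower. Of the 7 genes with their own probe set, 4 were called higher in MEL (Tap1, H2-M3, Tap2 and Calr), against 20.5% of all genes. In the other direction 2 were called (B2m and Erap1), against 43.2% of all genes, and Tapbp was not called. A called difference of at least 2-fold was found for 2 genes, both higher in MEL (Tap1 and H2-M3), where the share over all genes was 5.72%. None of the 7 was at least 2-fold lower, where that share was 4.27%. The median difference of the 7 genes was 0.47, and that of all genes was -0.15. A filter at the median signal, which drops H2-M3, lowered the former to 0.23. Other scalings brought the median of all genes to between -0.03 and -0.00, and the called genes went from 4096 higher and 8622 lower to 5757 higher and 5644 lower with median centring. The 6 called genes kept direction and call under each of the 3 other scalings.

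**Figure D1:**
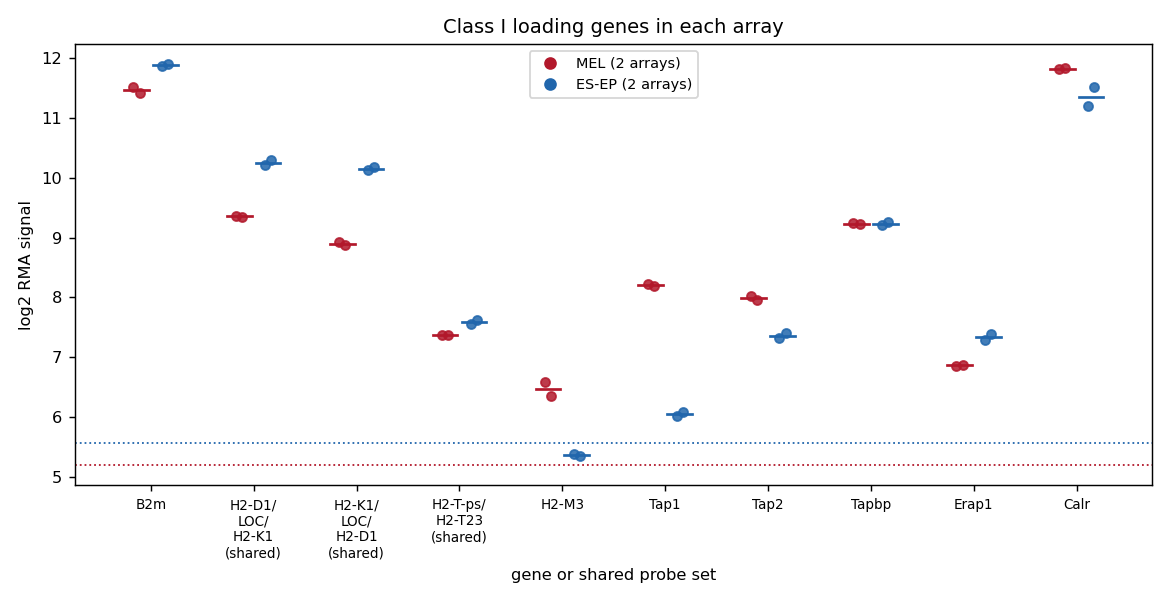
The vertical axis is the log2 RMA signal, points are single arrays (2 MEL in red, 2 ES-EP in blue), short bars are group means, and dotted lines mark the top of weak signals in each cell type. Columns are the 7 genes with their own probe set and 3 shared probe sets (LOC stands for LOC547349), to be read within a column only. Tap1 stands apart by 2.16 on this scale, H2-M3 in ES-EP lies under the dotted line, and the shared H2-K1 and H2-D1 probe sets lie higher in ES-EP.

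The sequences in front of these genes are shown because classical class I genes are known to share upstream control elements, and because Tap1 and the immunoproteasome gene Psmb9 start back to back. RefSeq promoter windows (GRCm38.p6, 300 bases each) were found for 9 of the 10 genes, all but Tap2. Each stretch below ends at the base before the gene's start and is given 5′ to 3′ on the plus strand. Capitals mark matches, on either strand, to the interferon response core GAAANNGAA, the gamma-activated site TTCNNNGAA, the CCAAT box, the cyclic AMP response core TGACG and the PU.1-type ETS site GAGGAA. Matches in these stretches did not overlap each other. The stretch for Tap1 and Psmb9 holds all 225 bases between their starts, at chr17:34187331-34187555. The other stretches hold 150 bases, at chr17:34198045-34198194 for Psmb8, chr17:35262944-35263093 for H2-D1, chr17:37270084-37270233 for H2-M3, chr2:122147537-122147686 for B2m and chr13:74639703-74639852 for Erap1.
Tap1 and Psmb9: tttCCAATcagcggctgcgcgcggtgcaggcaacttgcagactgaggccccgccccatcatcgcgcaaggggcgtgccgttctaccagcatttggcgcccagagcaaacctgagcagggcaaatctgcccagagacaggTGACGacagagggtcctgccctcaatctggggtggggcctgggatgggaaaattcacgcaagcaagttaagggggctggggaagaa
H2-D1: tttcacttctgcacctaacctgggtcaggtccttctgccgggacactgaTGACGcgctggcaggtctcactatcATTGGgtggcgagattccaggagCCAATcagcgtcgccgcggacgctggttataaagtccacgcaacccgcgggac
H2-M3: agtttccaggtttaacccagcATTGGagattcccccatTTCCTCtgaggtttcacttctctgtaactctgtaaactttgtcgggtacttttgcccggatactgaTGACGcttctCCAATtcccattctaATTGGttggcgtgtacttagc
B2m: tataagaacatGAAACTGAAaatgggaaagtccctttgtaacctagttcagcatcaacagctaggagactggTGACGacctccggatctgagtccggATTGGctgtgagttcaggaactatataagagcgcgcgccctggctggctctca
Erap1: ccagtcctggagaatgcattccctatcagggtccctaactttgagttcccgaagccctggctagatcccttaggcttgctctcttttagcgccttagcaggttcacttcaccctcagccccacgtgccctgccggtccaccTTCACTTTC
Psmb8: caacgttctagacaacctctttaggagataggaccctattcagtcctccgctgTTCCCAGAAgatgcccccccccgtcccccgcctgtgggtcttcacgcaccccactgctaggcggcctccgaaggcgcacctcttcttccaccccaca

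CCAAT occurred in 8 of the 9 windows (all but that of Erap1), against 37.4% of the 32851 windows of that length in the table. TGACG occurred in 5 (B2m, H2-D1, H2-K1, H2-M3 and Tap1), against 20.8%. GAAANNGAA occurred in 3 (B2m, Erap1 and H2-T23), against 8.56%. The windows of Tap1, H2-M3, Calr, H2-K1, H2-D1 and Tapbp hold no match to these letters. Other spellings of the interferon element were not searched, so no match here does not mean that such an element is absent. A part of interferon in the differences was not tested. GAGGAA occurred in 2 windows (H2-M3 and H2-T23), against 28.3%, and TTCNNNGAA in that of H2-M3 alone, against 8.3%. The CCAAT and TGACG matches between Tap1 and Psmb9 lie in the windows of both genes. A match is a description of the letters and says nothing of whether a factor binds there.

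B2m encodes beta-2-microglobulin, which pairs with nearly every class I heavy chain. Its signal was 11.53 in MEL A, 11.42 in MEL B, 11.88 in ES-EP A and 11.90 in ES-EP B. Both MEL arrays lay under both ES-EP arrays. The means were 11.47 ± 0.07 and 11.89 ± 0.02 (SD, n = 2 each), a 1.33-fold higher signal in ES-EP (difference -0.42 ± 0.08 SE, adjusted p = 0.00129). Under the other 3 scalings the difference lay between -0.36 and -0.27 and stayed called. A test against a 1.2-fold difference did not call it (adjusted p = 0.123).

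The classical heavy chains H2-K1 and H2-D1, which present peptides to cytotoxic T cells, share 2 probe sets with each other and with LOC547349. Their values belong to no single gene, and they were tested in a fit over all 35557 probe sets, of which 30.7% were called lower and 14.4% higher in MEL. Probe set 10450075, listed first for H2-K1, gave 8.92 and 8.88 in MEL against 10.12 and 10.18 in ES-EP. Probe set 10444780, listed first for H2-D1, gave 9.36 and 9.35 in MEL against 10.21 and 10.30 in ES-EP. On both, every ES-EP array lay above every MEL array. The first was 2.38-fold higher in ES-EP (difference -1.25 ± 0.08 SE, adjusted p = 0.000501) and the second 1.86-fold higher (difference -0.90 ± 0.08 SE, adjusted p = 0.00151). Their direction was thus that of B2m and opposite to that of the transporter. Class I heavy chain sequence differs between mouse strains, and the strains behind the cells are not given in the sources used here. The part of sequence differences in these signals was not tested.

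H2-T23 encodes the heavy chain of Qa-1, which shows leader peptides of other class I molecules to natural killer cells. Its only probe set, shared with the pseudogene H2-T-ps, gave 7.37 in both MEL arrays, and 7.56 and 7.63 in ES-EP. The groups did not overlap, but the difference of -0.22 ± 0.08 (SE) was not called (adjusted p = 0.0664). This p-value is from the limma fit over all probe sets, which gave larger adjusted p-values than the gene fit. Tap1 had an adjusted p of 0.000101 there and 3.28e-09 in the gene fit. Calls from these fits are therefore not comparable. Quantile normalization, with a difference of -0.25, called it (adjusted p = 0.0428). Of the 10 other settings that were run, none did.

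H2-M3, a nonclassical heavy chain that binds peptides beginning with formylmethionine, went the other way. It gave 6.58 and 6.36 in MEL against 5.38 and 5.34 in ES-EP. Both ES-EP arrays lay under the level of weak signals, and both MEL arrays lay above theirs. The means were 6.47 ± 0.16 and 5.36 ± 0.02, a difference of 1.11 ± 0.09 (SE, adjusted p = 2.7e-06). The fold of 2.16 sets a signal in MEL against background in ES-EP.

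The peptide transporter was higher in MEL, its chains by unequal amounts. TAP1 and TAP2 pair to form the ATP-driven pump that moves peptides across the membrane of the endoplasmic reticulum. Tap1 gave 8.23 and 8.20 in MEL against 6.03 and 6.08 in ES-EP. Each pair of replicates lay within 0.1 of each other, and the groups stood far apart. The means were 8.21 ± 0.02 and 6.05 ± 0.04, a 4.47-fold higher signal in MEL (difference 2.16 ± 0.08 SE, adjusted p = 3.28e-09), and the 95% interval ran from 3.95-fold to 5.05-fold. Its ES-EP signal was above the level of weak signals, so this fold compares signals on both sides. Tap2 gave 8.02 and 7.96 in MEL against 7.33 and 7.40 in ES-EP. Here too the groups did not overlap, but they stood closer. The means were 7.99 ± 0.04 and 7.36 ± 0.05, a 1.55-fold higher signal in MEL (difference 0.63 ± 0.08 SE, adjusted p = 7.23e-05). The Tap1 difference exceeded that of Tap2 by 1.53 (2.89-fold), and by 1.51 to 1.55 over the 4 pairings of a MEL with an ES-EP array. This gap was not tested, and an exact permutation test of 2 against 2 arrays cannot give a p under 0.333.

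Of the genes that trim peptides and assist loading, 1 moved each way and Tapbp was not called. Erap1, the aminopeptidase that shortens peptides inside the endoplasmic reticulum, gave 6.85 and 6.87 in MEL against 7.29 and 7.39 in ES-EP. Both ES-EP arrays were the higher. The means were 6.86 ± 0.01 and 7.34 ± 0.07, a 1.40-fold higher signal in ES-EP (difference -0.48 ± 0.08 SE, adjusted p = 0.000492).

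Tapbp encodes tapasin, which bridges the transporter and the empty class I molecule. It gave 9.25 and 9.22 in MEL against 9.20 and 9.27 in ES-EP, and the groups overlapped. The difference was -0.00 ± 0.08 (SE, adjusted p = 0.984), with a 95% interval from 0.883-fold to 1.13-fold. A change of the size seen for Tap2 or Tap1 lies outside that interval. Median centring moved it to 0.15, still not called (adjusted p = 0.121). A pair of further probe sets listed for both Rps3a1, a ribosomal protein gene, and Tapbp gave differences of -0.03 and -0.08 and were not called either (adjusted p = 0.782 and 0.463).

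Calr encodes calreticulin, a lectin-like chaperone that holds newly made glycoproteins, class I heavy chains among them. It gave 11.82 and 11.83 in MEL against 11.20 and 11.51 in ES-EP. Both MEL arrays were higher, and the ES-EP replicates lay further apart than those of any other of the 7 genes. The means were 11.82 ± 0.01 and 11.36 ± 0.22, a 1.38-fold higher signal in MEL (difference 0.47 ± 0.10 SE, adjusted p = 0.00277). The difference was 0.31 without ES-EP A and 0.62 without ES-EP B, called in both cases. The test against a 1.2-fold difference did not call it (adjusted p = 0.109).

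**Figure D2:**
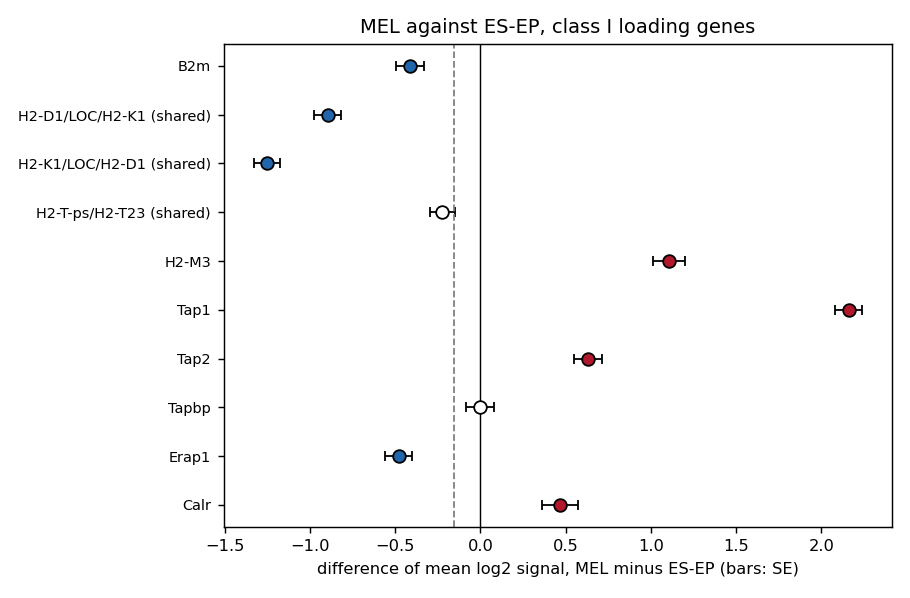
Points are differences of mean log2 signal, MEL minus ES-EP, with bars of 1 SE, for the 7 genes and the 3 shared probe sets. Filled points were called (red higher in MEL, blue lower), open points were not, and the dashed line is the median of all genes at -0.15. Tap1 at 2.16 and the probe set listed first for H2-K1 at -1.25 lie farthest apart.

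Of the 10 genes, 7 lie on chromosome 17, with Tap1 and Tap2 in the class II region of the major histocompatibility complex, where Psmb9, Tap1, Psmb8 and Tap2 follow each other. Psmb8 and Psmb9 encode catalytic subunits of the immunoproteasome, the form of the proteasome known for making class I ligands. All 4 of these neighbors were higher in MEL. Psmb8 gave 9.03 and 9.06 in MEL against 5.19 and 5.28 in ES-EP, the latter under the level of weak signals. Its difference was 3.81 ± 0.08 (SE, adjusted p = 5.14e-11), or 14-fold against background. Psmb9, read away from Tap1 with 225 bases between the starts, gave 7.90 and 7.80 in MEL against 7.41 and 7.30 in ES-EP, a 1.41-fold higher signal in MEL (difference 0.50 ± 0.08 SE, adjusted p = 5.00e-04). Thus the genes on either side of the stretch printed above differed in the same direction but unequally. The Tap1 difference was the larger by 1.66 (3.17-fold), with a range of 1.55 to 1.77 over the 4 pairings of arrays.

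Farther out the direction was mixed. On the Psmb9 side, H2-DMa, which encodes a chain of the class II peptide exchange factor DM, and H2-Oa, which encodes a chain of its inhibitor DO, were higher in MEL by 1.52 and 1.11 on the log2 scale, both against background. Brd2, a chromatin reader that lies between them, was lower by 0.58 (adjusted p = 0.000139). On the Tap2 side, H2-Ob was higher by 0.24 (adjusted p = 0.0335) and H2-Eb1 had a difference of -0.27 (adjusted p = 0.0119). The class II genes H2-Ab1, H2-Aa, H2-Eb2 and H2-Ea lay under the level of weak signals in both cell types.

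**Figure D3:**
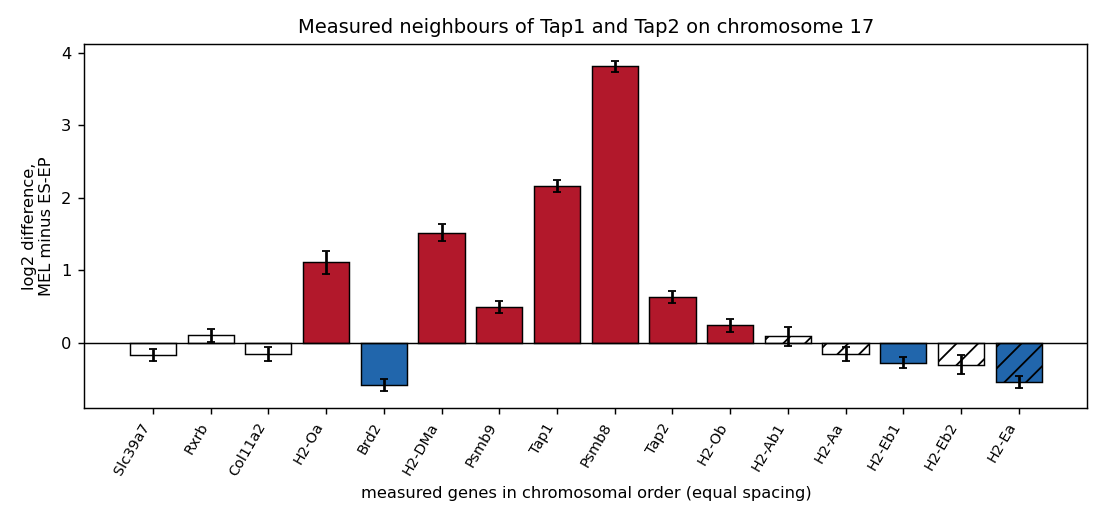
Bars are differences of mean log2 signal, MEL minus ES-EP, with SE, for the 7 measured genes before and 8 after Tap1 on chromosome 17, equally spaced in their order. Filled bars were called (red higher in MEL, blue lower), and hatched bars mark genes under the level of weak signals in both cell types. Psmb9, Tap1, Psmb8 and Tap2 are higher in MEL, with Psmb8 at 3.81 and Psmb9 at 0.50.

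The genes whose pattern over the 4 arrays lay nearest to that of Tap1, by Euclidean distance of centered log2 signals among all genes, were Slc35d2 (distance 0.0161), Sectm1a (0.0266) and Unkl (0.0354). Slc35d2, a nucleotide sugar transporter gene, gave 6.89 and 6.84 in MEL against 4.67 and 4.72 in ES-EP. The ES-EP signals of Slc35d2 and Sectm1a lay under the level of weak signals, unlike that of Tap1. Unkl gave 9.12 and 9.09 in MEL against 6.88 and 6.97 in ES-EP. With 4 arrays in 2 groups such likeness mostly means a difference of equal size.

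Among other class I heavy chains and class I-like molecules, 17 of 26 listed genes had their own probe set, with 5 called higher and 7 lower in MEL (20.5% and 43.2% over all genes) and a median difference of -0.08. Of these 17, 9 lay under the level of weak signals in both cell types, among them all 7 that were called lower. H2-Q4, of the Qa cluster, gave 7.86 and 7.76 in MEL and 4.61 in both ES-EP arrays. H2-T10, of the T cluster, gave 7.62 and 7.39 in MEL against 4.91 and 4.44 in ES-EP. In both genes the MEL arrays stood clear of background and the ES-EP arrays lay in it. The differences were 3.20 (adjusted p = 1.91e-10) and 2.83 (adjusted p = 3.45e-08). Mr1, which presents vitamin B metabolites to T cells, gave 7.61 and 7.54 in MEL against 4.89 and 5.06 in ES-EP (difference 2.60, adjusted p = 1.68e-09). Cd1d1, which presents lipids, gave 5.78 and 6.32 in MEL against 5.02 and 4.98 in ES-EP (difference 1.05, adjusted p = 0.000107). For Mr1 and Cd1d1, too, ES-EP was in the range of weak signals.

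Shared probe sets of the same clusters pointed both ways. The set of H2-Q6 and H2-Q8 gave 8.30 in both MEL arrays and 5.50 in both ES-EP arrays (difference 2.80, adjusted p = 4.86e-05, against background). The set of H2-T9, H2-T22 and H2-T10 gave 9.23 and 9.05 in MEL against 7.61 and 7.38 in ES-EP, a 3.11-fold higher signal in MEL (adjusted p = 0.00089). The set of H2-Q1 and H2-Bl gave 6.01 and 6.02 in MEL against 6.39 and 6.37 in ES-EP (adjusted p = 0.0156), a call lost when any 1 array was left out (adjusted p from 0.0562 to 0.0749) and with median centring (0.0711) or cyclic loess (0.0912). Class I genes resemble each other closely, so a probe may also read a near copy, and the share of such signal was not tested. The limit given above on strain sequence holds for the Q and T heavy chains too, H2-Q4 and H2-T10 among them. The part of such sequence differences in their signals was not tested.

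Chaperones and quality control genes of the endoplasmic reticulum, most of them not particular to class I loading, were mostly higher in MEL. Of 16 other chaperones and quality control genes, 10 were called higher and 1 lower (20.5% and 43.2% over all genes), with a median difference of 0.45. The lower gene was Erp29, a chaperone of the thioredoxin fold family, with a 1.55-fold higher signal in ES-EP (adjusted p = 0.000107). The largest differences were those of Pdia6 (2.47-fold) and Pdia4 (2.11-fold), both disulfide isomerases, of Mogs (2.45-fold), which removes the first glucose from new glycans, and of Sec61a1 (2.13-fold), a part of the translocation channel. Pdia6 gave 11.68 and 11.64 in MEL against 10.32 and 10.40 in ES-EP. Pdia3, the disulfide isomerase joined to tapasin in the loading complex, gave 12.25 and 12.36 in MEL against 11.87 and 11.84 in ES-EP, 1.36-fold higher in MEL (adjusted p = 0.000823). Canx, the membrane-bound relative of calreticulin, gave 12.20 and 12.18 in MEL against 12.14 and 12.18 in ES-EP and was not called (difference 0.03, adjusted p = 0.795). Tapbpl, the tapasin-related peptide editor, had a difference of -0.08 and was not called (adjusted p = 0.416). Pdia3, Canx and Tapbpl are named for their role and Erp29 for its direction, all after their values were seen and outside the rule that picked the largest differences.

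Upstream of the transporter, the 7 genes of the immunoproteasome and its activator did not move together. Only Psmb8 and Psmb9 were called higher in MEL, and Psmb10, Psme1, Psme2 and Psme3 were called lower, next to 20.5% and 43.2% over all genes. Psmb10, the remaining immunoproteasome catalytic subunit, gave 7.98 and 8.05 in MEL against 8.21 and 8.25 in ES-EP (difference -0.21, adjusted p = 0.0387). Psme1, a subunit of the PA28 activator, gave 10.38 and 10.25 in MEL against 10.83 and 10.96 in ES-EP (difference -0.58, adjusted p = 0.000215). Psme2 had a difference of -0.31, Psme3 of -0.24 and the assembly factor Pomp, not called, of -0.07. The median of all genes was -0.15, near the values of Psmb10 and Psme3. The lower calls of this list were not examined under other scalings. Of the constitutive subunits that the inducible ones replace, Psmb5, the counterpart of Psmb8, was lower in MEL (difference -0.65, adjusted p = 0.000131), and so was Psmb6, the counterpart of Psmb9 (difference -1.05, adjusted p = 1.5e-06). Psmb7, the counterpart of Psmb10, was not called (difference 0.05, adjusted p = 0.624).

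Cytosolic peptidases, which trim or destroy peptides before transport, were called in both directions, 3 of 9 each way (20.5% higher and 43.2% lower over all genes), with a median difference of -0.12 near the -0.15 of all genes. Lap3, leucine aminopeptidase, was 2.25-fold higher in MEL and Thop1, thimet oligopeptidase, 1.85-fold higher. Dpp9 was higher by 0.66 on the log2 scale and Prep lower by 0.45.

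Genes listed for the transcriptional control of class I genes, Spi1 among them, were called in both directions. Whether Spi1 acts on class I promoters was not tested. Of 18 measured regulators, 3 were called higher and 10 lower in MEL, near the 20.5% and 43.2% over all genes, with a median difference of -0.29. Nlrc5, the class I transactivator, gave 8.47 and 8.46 in MEL against 8.82 and 8.86 in ES-EP (difference -0.38, adjusted p = 0.00182). Both MEL arrays were the lower, as for B2m, and here too the test against a 1.2-fold difference made no call (adjusted p = 0.212). Stat2, a part of the interferon response complex, was 2.36-fold lower in MEL, with 6.85 and 6.93 against 8.06 and 8.20. Its partner Irf9 had a difference of -0.61 and Irf1 of -0.31. The Irf1 means, 5.38 in MEL and 5.70 in ES-EP, lay close above the levels of weak signals (5.19 and 5.56). Rfx5, the DNA-binding part of the complex through which Nlrc5 acts, gave 8.44 and 8.32 in MEL against 7.28 and 7.40 in ES-EP, 2.06-fold higher in MEL (adjusted p = 2.71e-06). Its partners went different ways, Rfxap by 0.24 and Rfxank by -0.63. Spi1, which encodes PU.1, the factor at the center of the study, was 2.08-fold higher in MEL, with 10.09 in both arrays against 8.94 and 9.13.

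Of 9 genes of interferon receptors, their kinases and SOCS inhibitors, 5 were called lower in MEL and 1 higher, near the 43.2% and 20.5% over all genes. Jak1 was 2.05-fold lower and Ifnar2, a chain of the type I interferon receptor, 2.01-fold lower, while Jak2 was higher by 0.64. Socs1, a feedback inhibitor that interferon induces, was lower by 0.90. In the class II pathway 4 of 11 genes were called each way, against 20.5% higher and 43.2% lower over all genes, and 2 of the 4 lower genes (Cd74 and Ctss) lay under the level of weak signals in both cell types. Ctsl, a lysosomal protease, was 3.46-fold higher in MEL, and Ifi30, a lysosomal thiol reductase induced by interferon gamma, 2.42-fold lower. Cd74 encodes the class II invariant chain.

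**Figure D4:**
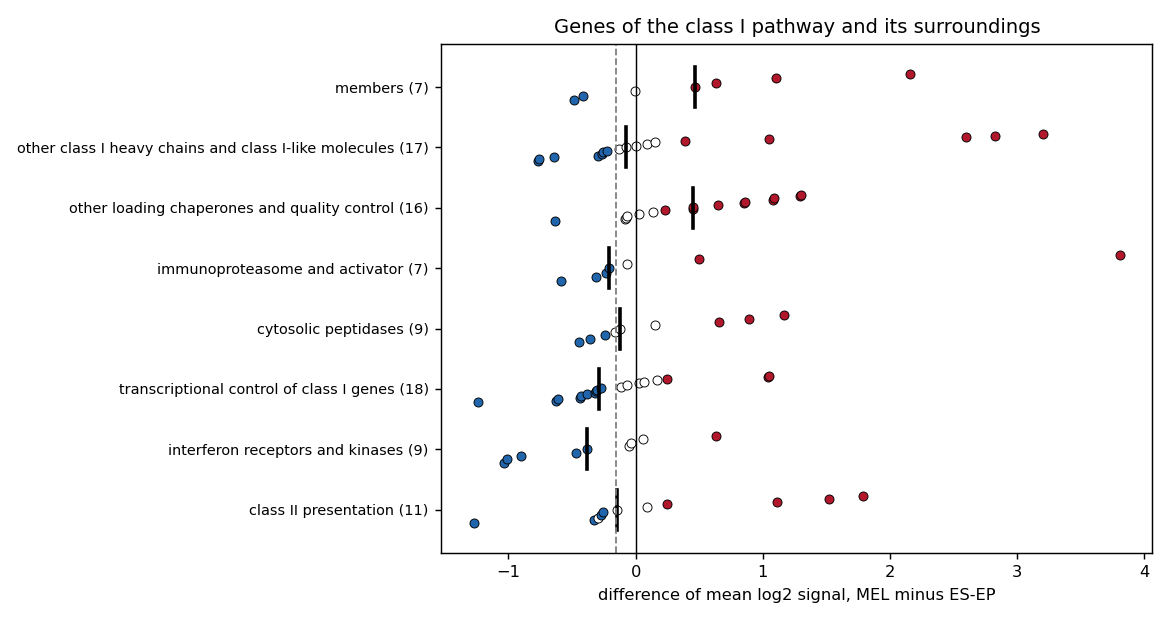
Each point is a gene's difference of mean log2 signal, MEL minus ES-EP, for 8 lists with the number of measured genes in brackets. Filled points were called (red higher in MEL, blue lower), black bars are list medians and the dashed line is the median of all genes at -0.15. Loading genes and chaperones have medians of 0.47 and 0.45, and the regulators have -0.29.

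The labels were checked against markers. All 9 measured markers of red cell precursors were above the level of weak signals in both cell types. Gata1 was 2.21-fold higher in MEL, which carry the Gata-1 fusion, and Slc4a1 and Alas2, genes of maturing red cells, were higher in ES-EP by 44.4-fold and 8.69-fold. Mast cell markers moved with the cell type. Of 10 markers, 5 were above the level in ES-EP and 2 in MEL. The log2 of the summed signals of the 10 was 11.79 to 11.92 in ES-EP and 8.43 to 8.48 in MEL. In that sum the brightest probe sets weigh most. Ms4a2 gave 11.15 and 10.96 in ES-EP and 4.08 and 3.83 in MEL, whereas Cpa3 and Fcer1a were under the level in both. The part of such cells or transcripts in the ES-EP signals of B2m, Erap1 and the heavy chains was not tested. Most markers of macrophages and dendritic cells (7 of 10), B cells (5 of 6) and T and NK cells (5 of 7) lay under the level in both cell types.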

How the data were processed

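RNA of 2 MEL and 2 ES-EP cultures was hybridized to Affymetrix Mouse Gene 1.0 ST arrays. The authors normalized the scans by RMA in GeneSpring GX, and the deposited values are log2 signals, 1 column per array, with medians from 5.67 to 5.84 over 35557 probe sets. Replicates correlated at r = 0.998 over genes. The number of arrays limits the precision.

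Genes were named from probe sets with a single symbol (21789). Those with several symbols (1621) or no name here (12147) entered no gene test. Each of 19938 genes was represented by its brightest probe set, by mean of the 4 arrays. Two-sided tests used lmFit and eBayes of limma 3.58.1 under R 4.3.3, without a block, and p-values were adjusted by Benjamini-Hochberg at 0.05. Shared probe sets came from the same fit over all probe sets. The fits were tested on simulated data. Errors after ± are SDs of 2 cultures unless marked SE. The letters A and B are not stated to pair the cultures. Deviations from group means showed little shared shift by letter (r = -0.04), which cannot show that the cultures were unpaired.

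The 10 genes and all lists were chosen with earlier results of these data known. Named genes were the 10, up to 4 called genes per list with the largest differences, regulators and immunoproteasome genes freely, and the 3 nearest to Tap1. Promoter letters and positions came from RefSeq tables (GRCm38.p6). Alternatives were 3 other scalings, 2 filters on mean signal, a mean over a gene's probe sets, a fit of every probe set, robust eBayes with a trend, a replicate block, Holm's adjustment, a 1.2-fold test, a 2-fold rule without test, and leaving out each array. Figures used Python 3.11.15 and matplotlib 3.10.9.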

Additional observations from a re-analysis of the deposited data

How the results depend on the processing

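Tap1 and H2-M3 kept their direction and call in every setting that measured them. Tap1 ranged from 2.13 to 2.31. The filter at the median signal dropped H2-M3, which left 6 genes with a median difference of 0.23 in place of 0.47. Genes called higher in MEL numbered 2 with Holm's adjustment and 2 by the 2-fold rule without test. Genes called lower numbered 0 with Holm's adjustment, 1 with the test against 1.2-fold (Erap1) and 0 by the 2-fold rule. Holm's adjustment lost Tap2 (adjusted p = 0.219), B2m, Erap1 and Calr. Among the shared probe sets it lost both of H2-K1 and H2-D1 (adjusted p = 0.680 and 1.0). It also lost the set of H2-T9, H2-T22 and H2-T10 and that of H2-Q1 and H2-Bl. Shared sets were tested in the fit over all probe sets, which gave larger adjusted p-values than the gene fit. Their loss is thus not comparable with the calls kept for single genes. In the gene fit Psmb9 and Nlrc5 were lost as well. With each array left out in turn the median difference of the 7 genes ran from 0.31 to 0.62, and 4 higher and 2 lower calls held. The difference of Tapbp, never called, reversed with quantile normalization (0.057), median centring (0.15) and cyclic loess (0.064), and ran from -0.034 to 0.030 with arrays left out. That of the shared H2-T3 and H2-T18 probe set, weak in both cell types, reversed to 0.17, 0.091 and 0.19 under these scalings and ran from -0.22 to 0.10 with arrays left out. The cause of these changes was not tested.

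Over all genes, 8622 lower calls became 5644 with median centring, 5460 with cyclic loess, 3876 with the filter at the median signal, 1353 with Holm's adjustment, 3903 with the 1.2-fold test and 852 by the 2-fold rule. The 4096 higher calls became 1484, 2488 and 1141 in the last 3 of these. With the letters A and B as a replicate block, 4 of the 7 genes were called higher and 2 lower, as without it, and 4093 and 8616 genes were called overall. The letters are not stated to pair the cultures.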
